A study of Mus musculus with 12 samples.

Results

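A set of 10 genes that mark endothelial cells was followed through 12 mouse melanoma tumors. They were chosen by symbol: Pecam1, Tek, Tie1, Emcn, Eng, Cldn5, Esam, Robo4, Plvap and Egfl7. All 10 were found among the 23940 genes of the deposited table. YUMM1.7 is a mouse melanoma line driven by mutant Braf, with Cdkn2a deleted. It was grown as tumors in immunodeficient mice, and RNA of whole tumors was sequenced after poly(A) selection. The 4 groups, each of 3 tumors, were YUMM1.7 overexpressing PD-L2 under a BRAF inhibitor (PD-L2 BRAFi), YUMM1.7 without added PD-L2 under the inhibitor (control BRAFi), PD-L2 tumors given vehicle (DMSO; PD-L2 vehicle) and control tumors given vehicle (control vehicle). PD-L2 binds PD-1, an inhibitory receptor on T cells. The labels call the host NSG and the design text calls it NOD/SCID, both of which lack T and B cells. The design text speaks of resistance to the inhibitor, while the labels give the treatment alone, with no inhibitor name, dose or time. The labels do not give the animals' age, the number of tumors per animal, or whether the PD-L2 line is 1 clone.

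Endothelial cells line blood vessels, and a growing tumor recruits them from its host. They hold together through junction proteins, respond to angiopoietin, vascular endothelial growth factor and transforming growth factor family ligands through dedicated receptors, and carry surface proteins that differ between vessel types. In a transplanted tumor the vessels are of host origin. In bulk RNA, fewer endothelial cells and less RNA per endothelial cell cannot be told apart.

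Libraries showed their groups by the introduced gene. Pdcd1lg2, which encodes PD-L2, was 176, 20.8 and 171 FPKM (mapped fragments normalised for transcript length and library total) in PD-L2 BRAFi tumors 1 to 3, against 0.90, 3.54 and 0.86 FPKM in control BRAFi tumors. It was 41.3, 58.2 and 114 FPKM in PD-L2 vehicle tumors, against 0.16, 0.13 and 0.28 FPKM in control vehicle tumors. All 6 PD-L2 tumors lay above all 6 control tumors. FPKM summed to 499845 to 648254 per library, 16269 to 17469 genes were above 0, and the read depth is unknown. PD-L2 BRAFi tumor 2 stood apart: the microRNA gene Mir2137 took 16.1% of its summed FPKM and was listed at 0 elsewhere. Of the pigment cell markers of the labelled melanoma, Dct, Mlana and Tyrp1 were at or near 0 in all 12 tumors (at most 0.11, 0.17 and 0.065 FPKM), and Mitf was 2.32 to 5.16 FPKM. Sox10 ran from 0.031 to 24.9 FPKM, highest in control BRAFi tumor 1, Tyr from 0.53 to 1.63 FPKM and Pmel from 0.16 to 0.60 FPKM. Median changes of the endothelial markers are given with and without PD-L2 BRAFi tumor 2 where it enters the comparison.

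Regulatory sequence was available for 7 of the 10 genes as RefSeq promoters (build GRCm38.p6), of which 4 upstream stretches are shown because these genes span the kinds of behaviour described further on. Tie1 and Emcn rose and fell together from tumor to tumor, Cldn5 had the largest difference between treatments, and Eng followed the others least among the tested genes. Each stretch ends just before the annotated start, reads 5′ to 3′ on the gene's strand, and has GGAA, the core letters bound by ETS factors of endothelial cells, in capitals, shown as TTCC where it lies on the other strand.
Tie1, chr4:118489850-118490099, minus strand: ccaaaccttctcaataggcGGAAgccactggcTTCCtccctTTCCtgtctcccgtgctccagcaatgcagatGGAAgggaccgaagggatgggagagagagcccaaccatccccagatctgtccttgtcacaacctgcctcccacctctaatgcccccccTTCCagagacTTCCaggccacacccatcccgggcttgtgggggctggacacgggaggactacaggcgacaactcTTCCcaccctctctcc
Emcn, chr3:137340828-137341061, plus strand: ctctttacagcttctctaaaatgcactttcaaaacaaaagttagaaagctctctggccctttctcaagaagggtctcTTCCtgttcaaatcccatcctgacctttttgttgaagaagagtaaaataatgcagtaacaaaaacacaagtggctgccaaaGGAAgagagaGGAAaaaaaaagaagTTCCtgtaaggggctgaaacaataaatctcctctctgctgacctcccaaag
Cldn5, chr16:18776597-18776846, plus strand: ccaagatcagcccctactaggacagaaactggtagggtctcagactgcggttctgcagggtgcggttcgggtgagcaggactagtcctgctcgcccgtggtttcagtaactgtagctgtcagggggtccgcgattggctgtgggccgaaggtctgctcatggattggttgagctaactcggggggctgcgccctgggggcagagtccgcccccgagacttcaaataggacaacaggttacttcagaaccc
Eng, chr2:32646345-32646594, plus strand: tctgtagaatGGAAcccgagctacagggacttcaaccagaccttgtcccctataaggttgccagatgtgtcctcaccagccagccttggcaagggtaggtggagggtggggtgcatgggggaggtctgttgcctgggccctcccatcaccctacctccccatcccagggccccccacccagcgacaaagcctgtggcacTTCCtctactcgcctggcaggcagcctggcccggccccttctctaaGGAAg

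The Tie1 stretch held 7 GGAA matches on both strands, the Emcn stretch 4, the Eng stretch 3 and the Cldn5 stretch 0. GGAA is short enough to occur in 93.4% of all 32851 RefSeq promoters over the 250 bases before the start, and 6 of the 7 markers with a promoter held it. The longer form ACAGGAA was in 3 of 7 (Tie1, Emcn and Egfl7) and in 7.2% of all promoters; it contains GGAA. The form CCGGAAG was in 0 of 7 and in 6.91% of all promoters. ACAAAG, a form bound by SOX factors, was in 3 of 7 (Egfl7, Eng and Tek) and in 16.5% of all promoters. AGATAA, a form bound by GATA factors, was in 0 of 7 and in 9.99% of all promoters. The E-box CACGTG was in 0 of 7 and in 6.02%, and the TATA box TATAAA was in 0 of 7 and in 12.4%. The counts are of genes with a match in any of their promoters, while the shares are of single promoters, so they are not on the same footing. The 7 genes had 9 promoters, of which 8 held GGAA, 4 ACAGGAA and 3 ACAAAG. All letters were searched on both strands. A match is a description of letters in this window and not of binding.

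Pecam1 opened the junction and adhesion genes. It encodes CD31, an adhesion molecule of endothelial cell contacts that platelets and leukocytes also carry. Pecam1 was 16.2, 25.5 and 10.1 FPKM in PD-L2 BRAFi tumors and 16.5, 11.97 and 14.5 FPKM in control BRAFi tumors, against 12.2, 11.9 and 9.01 FPKM in PD-L2 vehicle and 17.4, 16.0 and 9.77 FPKM in control vehicle tumors. The highest and the third lowest of its 12 values came from the same group, PD-L2 BRAFi. All 4 groups overlapped.

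Cldn5 encodes claudin-5, the main tight junction protein of endothelial cells. It was 1.63, 1.75 and 1.78 FPKM in control BRAFi tumors, against 13.4, 6.04 and 2.99 FPKM in control vehicle tumors. Every treated control tumor was lower than every vehicle control tumor, and Cldn5 was the only 1 of the 10 genes with such a gap among the 4 comparisons of groups that share a line or a treatment. It was 3.03, 9.25 and 1.48 FPKM in PD-L2 BRAFi tumors, which spanned the 3.21, 3.02 and 3.78 FPKM of PD-L2 vehicle tumors. Esam, an adhesion molecule at endothelial tight junctions that platelets also carry, was 8.87, 15.2 and 4.10 FPKM in PD-L2 BRAFi tumors and 6.45, 7.07 and 6.78 FPKM in control BRAFi tumors. Under vehicle it was 8.35, 7.38 and 7.01 FPKM in PD-L2 tumors and 16.8, 11.1 and 4.15 FPKM in control tumors. Esam was close among tumors in control BRAFi and PD-L2 vehicle, and spread 3.70 times from lowest to highest in PD-L2 BRAFi and 4.06 times in control vehicle.

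The receptors were low, apart from Eng. Tek (Tie2) is the receptor of the angiopoietins and Tie1 is its relative and partner. Tek was 0.61, 1.01 and 0.74 FPKM in PD-L2 BRAFi, 1.01, 0.72 and 0.72 FPKM in control BRAFi, 0.75, 0.99 and 0.44 FPKM in PD-L2 vehicle, and 0.70, 0.67 and 0.93 FPKM in control vehicle tumors. It was the 1 member under the minimum mean of 1 FPKM for testing, so 9 of 10 were tested. Tie1 was 3.57, 7.09 and 2.30 FPKM in PD-L2 BRAFi and 2.65, 2.26 and 2.78 FPKM in control BRAFi tumors, against 3.52, 3.44 and 3.09 FPKM in PD-L2 vehicle and 5.17, 3.92 and 2.43 FPKM in control vehicle tumors. The highest Tie1 value was again that of PD-L2 BRAFi tumor 2.

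Robo4, a roundabout receptor of endothelial cells with a role in vessel stability, was 2.45, 3.69 and 1.29 FPKM in PD-L2 BRAFi tumors and 1.64, 1.38 and 1.71 FPKM in control BRAFi tumors. Under vehicle it was 2.43, 2.55 and 2.00 FPKM in PD-L2 and 3.32, 2.90 and 1.55 FPKM in control tumors. Groups that share a line or a treatment overlapped. Control BRAFi (1.38 to 1.71 FPKM) was the lowest group by mean and lay below PD-L2 vehicle (2.00 to 2.55 FPKM), which differs from it in both. The share of tested genes with a gap between these groups was not computed. Eng encodes endoglin, a co-receptor for transforming growth factor and bone morphogenetic protein ligands that macrophages and mesenchymal cells also express. Eng was 103, 116 and 59.4 FPKM in PD-L2 BRAFi and 123, 76.0 and 100.3 FPKM in control BRAFi tumors, against 137, 119 and 90.8 FPKM in PD-L2 vehicle and 122, 93.9 and 139 FPKM in control vehicle tumors. On this per-length scale it was the highest of the 10 in every tumor, at 59.4 to 139 FPKM, and the order of its groups was within their spread.

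A pair of surface proteins that differ between vessel types came next. Emcn, a sialomucin of capillary and venous endothelium, was 9.45, 13.2 and 4.16 FPKM in PD-L2 BRAFi and 6.18, 4.73 and 5.75 FPKM in control BRAFi tumors, against 6.83, 6.10 and 5.80 FPKM in PD-L2 vehicle and 10.1, 8.53 and 4.55 FPKM in control vehicle tumors. Plvap forms the diaphragms of fenestrae and caveolae. It was 51.8, 70.6 and 23.0 FPKM in PD-L2 BRAFi and 44.9, 19.6 and 52.2 FPKM in control BRAFi tumors, against 92.8, 72.1 and 69.9 FPKM in PD-L2 vehicle and 73.9, 45.8 and 39.7 FPKM in control vehicle tumors. Emcn overlapped between all groups. Plvap overlapped between groups that share a line or a treatment, though PD-L2 BRAFi and PD-L2 vehicle did so only by the 70.6 FPKM of the highest treated tumor against the 69.9 FPKM of the lowest vehicle tumor. Between the groups that differ in both, Plvap in control BRAFi tumors (19.6 to 52.2 FPKM) lay below PD-L2 vehicle tumors (69.9 to 92.8 FPKM). Besides Robo4, so did Tie1 (2.26 to 2.78 against 3.09 to 3.52 FPKM) and Cldn5 (1.63 to 1.78 against 3.02 to 3.78 FPKM). The share of tested genes with such a gap was not computed, so these gaps cannot be set against those of other genes. For groups that share a line or a treatment, 11.5% to 36.1% of tested genes did not overlap.

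Egfl7 encodes a secreted matrix protein of endothelial cells. It was 12.6, 16.2 and 7.11 FPKM in PD-L2 BRAFi and 10.3, 5.86 and 8.95 FPKM in control BRAFi tumors, against 12.9, 11.1 and 9.99 FPKM in PD-L2 vehicle and 25.5, 14.3 and 8.57 FPKM in control vehicle tumors. Control BRAFi was the lowest group by mean and met control vehicle between 8.57 and 10.3 FPKM. The microRNA genes hosted by Egfl7, Mir126 and Mir126b, were listed at 0 in all 12 poly(A) libraries. Where another gene overlaps a member in the reference annotation, reads of unstranded libraries within the shared stretch cannot be told apart. Gtpbp3, which overlaps Plvap, was 8.37 to 18.9 FPKM and followed Plvap with r = 0.94 over 12 libraries. The part of such shared reads in the Plvap values was not tested. Fpgs, which overlaps Eng, was 7.63 to 16.1 FPKM and followed Eng with r = 0.51.

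**Figure D1:**
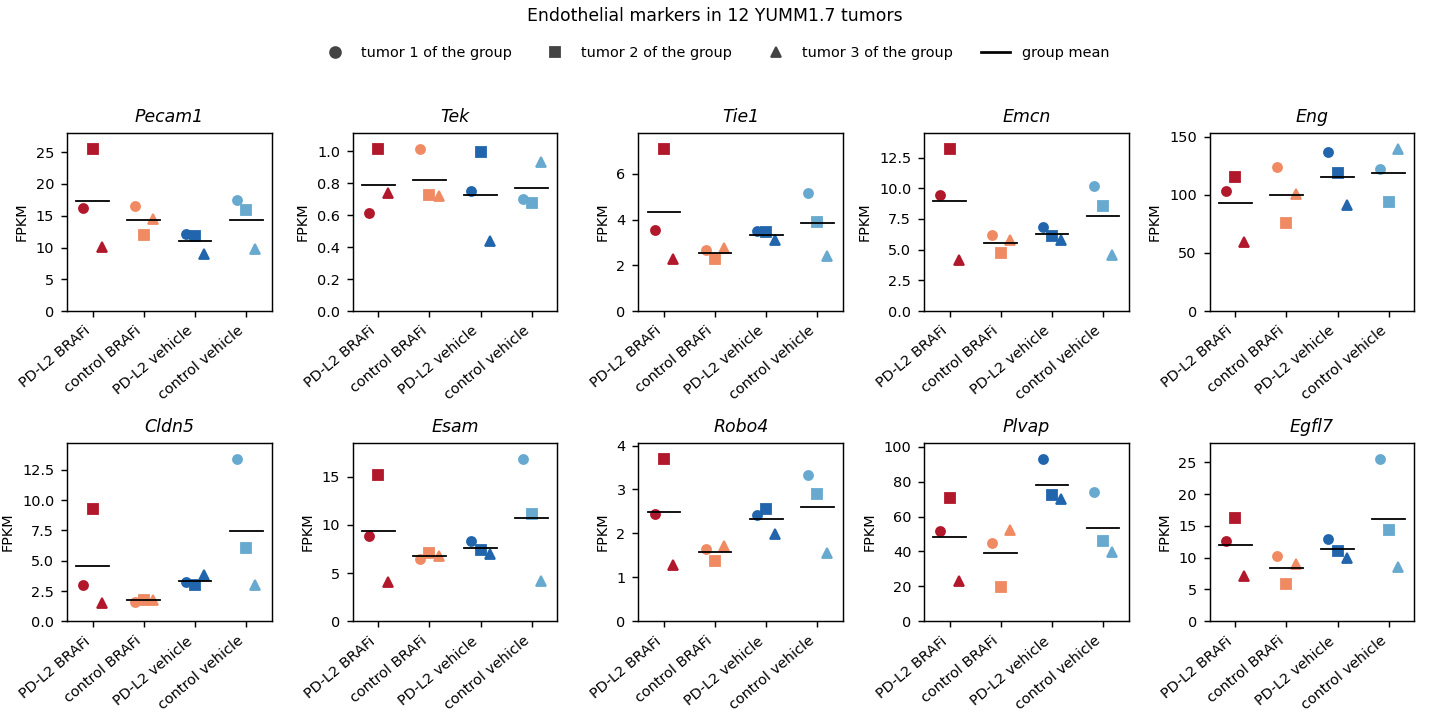
FPKM (linear axis from 0) of the 10 endothelial markers in each of 12 tumors; circles, squares and triangles are tumors 1, 2 and 3 of a group and the bar is the group mean of 3 tumors. PD-L2 BRAFi tumor 2 is the highest tumor for 4 genes, and Cldn5 in control BRAFi (1.63 to 1.78 FPKM) lies below control vehicle (2.99 to 13.4 FPKM).

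BRAFi was compared with vehicle to ask what the inhibitor does to the vascular genes of these tumors. In control tumors 0 of the 9 tested markers passed (limma, adjusted p under 0.05), where 7.42% of the 12117 tested genes did, 3.51% higher and 3.91% lower. At an unadjusted p under 0.05 there was 1, Cldn5, where 3858 of the 12117 tested genes had such a p. Of the 10 log2 differences 8 were negative, with a median of -0.41 beside 0.02 over all tested genes. That median ran from -0.67 without control vehicle tumor 3 to -0.21 without control vehicle tumor 1. Cldn5 differed by -1.44 ± 0.51 on the log2(FPKM + 1) scale (SE; limma adjusted p = 0.0871), and its tumors did not overlap, as was so for 36.1% of tested genes. Egfl7 differed by -0.78 ± 0.37 (adjusted p = 0.173), Plvap by -0.50 ± 0.44 (adjusted p = 0.445) and Pecam1 by 0.02 ± 0.30 (adjusted p = 0.97). Leaving out each library in turn, Egfl7 ran from -1.13 to -0.40 and Plvap from -0.76 to -0.08. The other 5 tested markers lay between -0.45 and -0.25. Without control vehicle tumor 3, the lowest of its group for 8 of the 10 genes, Cldn5 passed at -1.89 (adjusted p = 0.0402), so its side of the threshold was set by that library.

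In PD-L2 tumors 0 of 9 markers passed for BRAFi (limma), where 0.239% of tested genes did. At an unadjusted p under 0.05 there were also 0, where 2586 tested genes had such a p. Of the 10 markers 0 had groups that did not overlap, where 29.9% of tested genes did. The median of the 10 differences was 0.09, beside 0.01 over all tested genes. Plvap had the most negative value, -0.81 ± 0.44 (SE; adjusted p = 0.312), and Pecam1 the most positive, 0.52 ± 0.30 (adjusted p = 0.335). These values leaned on PD-L2 BRAFi tumor 2. Without it the median was -0.23 (0.40 without PD-L2 BRAFi tumor 3), Plvap differed by -1.15 (adjusted p = 0.199), Pecam1 by 0.21 (adjusted p = 0.656), and Cldn5 by -0.45 (adjusted p = 0.549) in place of 0.11 with it.

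Averaged over both lines, 0 of 9 markers passed for BRAFi (limma), where 24.7% of tested genes did. At an unadjusted p under 0.05 there were also 0, where 4889 tested genes had such a p. Cldn5 differed by -0.66 ± 0.36 (SE; adjusted p = 0.188), Plvap by -0.65 ± 0.31 (adjusted p = 0.138), Egfl7 by -0.38 ± 0.26 (adjusted p = 0.288) and Eng by -0.30 ± 0.19 (adjusted p = 0.263). Pecam1 differed by 0.27 ± 0.21 (adjusted p = 0.351). Without PD-L2 BRAFi tumor 2 Cldn5 passed, at -0.95 (adjusted p = 0.0405). The median of the 10 was -0.18, beside 0.01 over all tested genes; it was -0.34 without that tumor and -0.022 without PD-L2 BRAFi tumor 3.

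**Figure D2:**
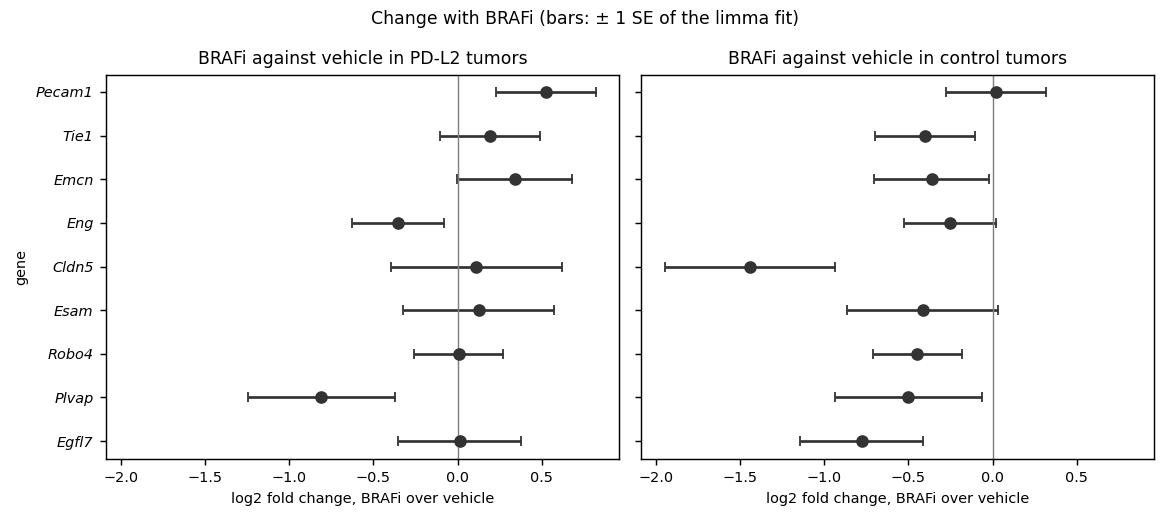
Log2 fold change of BRAFi over vehicle on the log2(FPKM + 1) scale for the 9 tested markers, in PD-L2 tumors and in control tumors; points are limma estimates and bars 1 SE, from 3 tumors per group. In control tumors Cldn5 (-1.44) lies farthest from 0, in PD-L2 tumors Plvap (-0.81), and 0 of the 18 estimates passed the adjusted threshold.

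PD-L2 was compared with control to ask whether the added ligand goes with other vascular genes. Under vehicle 0 of 9 markers passed (limma; 0 at an unadjusted p under 0.05), as did 0.0% of tested genes, of which 1319 had an unadjusted p under 0.05. Plvap was higher by value in PD-L2 vehicle tumors, at 78.3 ± 12.7 FPKM against 53.1 ± 18.3 FPKM in control vehicle tumors (SD, n = 3 each), a difference of 0.59 ± 0.44 on the log2 scale (adjusted p = 0.639). Cldn5 differed by -0.77 ± 0.51 (adjusted p = 0.594), and the 10 differences had a median of -0.16 beside 0.01 over all tested genes. That median ran from -0.43 without control vehicle tumor 3 to 0.0062 without control vehicle tumor 1. Groups that did not overlap were found for 0 of 10 markers and 20.6% of tested genes.

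Under BRAFi 0 of 9 markers passed for PD-L2 against control (limma), where 0.0743% of tested genes did. At an unadjusted p under 0.05 there were also 0, where 856 tested genes had such a p. The median of the 10 was 0.33, beside -0.01 over all tested genes, with Cldn5 at 0.78 ± 0.51 (SE; adjusted p = 0.768) and Emcn at 0.49 ± 0.34 (adjusted p = 0.783). Without PD-L2 BRAFi tumor 2 that median was 0.036, and without PD-L2 BRAFi tumor 3 it was 0.72. Groups that did not overlap were found for 0 of 10 markers and 11.5% of tested genes. Averaged over treatments 0 of 9 passed (limma), where 0.099% of tested genes did. At an unadjusted p under 0.05 there were also 0, where 1642 tested genes had such a p. The 10 differences ran from -0.09 to 0.44 with a median of 0.02. That median was -0.081 without PD-L2 BRAFi tumor 2 and 0.22 without PD-L2 BRAFi tumor 3.

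The BRAFi responses of PD-L2 and control tumors were then set against each other as an interaction. Here 0 of 9 passed (limma), where 0.0165% of tested genes did. At an unadjusted p under 0.05 there were also 0, where 542 tested genes had such a p. Of the 10 interaction values 8 were positive, with a median of 0.52 beside -0.01 over all tested genes. Cldn5 was at 1.55 ± 0.72 (SE; adjusted p = 0.956), Egfl7 at 0.79 ± 0.52 and Emcn at 0.70 ± 0.48, and Plvap at -0.31 ± 0.62. The median was 0.20 without PD-L2 BRAFi tumor 2 and 0.85 without PD-L2 BRAFi tumor 3. A p above the threshold with 3 tumors per group does not show that the markers were alike between groups.

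The markers varied widely between tumors of the same group. The SD within groups on the log2 scale was 0.70 for Cldn5, 0.62 for Esam, 0.61 for Plvap, 0.50 for Egfl7, 0.47 for Emcn, 0.41 for Pecam1, 0.40 for Tie1, 0.37 for Eng and 0.34 for Robo4. The median over tested genes was 0.21. Cldn5 stood at the 93.6th percentile of all tested genes by that SD and Robo4, the lowest, at the 77.8th. Among the 500 genes nearest in mean level, Cldn5 stood at the 92.8th percentile, Plvap at the 96.4th, Tie1 at the 76.8th and Robo4 at the 64.5th. PD-L2 BRAFi tumor 2 held 6.26 times as much Cldn5 FPKM as PD-L2 BRAFi tumor 3, 3.70 times as much Esam, 3.17 times as much Emcn and 2.52 times as much Pecam1, but 1.37 times as much Tek. Control vehicle tumor 1 held 4.48 times as much Cldn5, 4.06 times as much Esam and 2.97 times as much Egfl7 as control vehicle tumor 3.

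The same tumors were high or low for most of the markers. PD-L2 BRAFi tumor 2 was the highest or second highest tumor for 8 of 10 and so was control vehicle tumor 1. PD-L2 BRAFi tumor 3 was among the 3 lowest for 9 of 10, control BRAFi tumor 2 for 7 and control vehicle tumor 3 for 7. Averaging the 10 genes after standardising each over the 12 libraries gave a score of 0.16, 1.45 and -1.24 in PD-L2 BRAFi tumors 1 to 3 and -0.09, -0.99 and -0.36 in control BRAFi tumors, against 0.28, 0.19 and -0.46 in PD-L2 vehicle and 1.17, 0.36 and -0.48 in control vehicle tumors. The highest and the lowest of the 12 scores were thus in 1 group.

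Over all 45 pairs of the 10 genes, Pearson r ran from -0.04 to 0.95 with a median of 0.65, which was 0.55 without PD-L2 BRAFi tumors 2 and 3. The 7 genes that moved most closely together were Pecam1, Tie1, Emcn, Cldn5, Esam, Robo4 and Egfl7, a set drawn after their values were seen. Over 12 libraries the 21 pairs among them had r of 0.55 to 0.95 with a median of 0.86, and 0.84 to 0.98 with a median of 0.93 for deviations from the group means. Without the 2 tumors farthest from the median score, PD-L2 BRAFi tumors 2 and 3, r was 0.28 to 0.98 with a median of 0.84. Plvap followed the 7 with r of 0.30 to 0.73 and Eng with 0.29 to 0.52. Tek did so with -0.04 to 0.36, at levels near or under 1 FPKM. For deviations from the group means, r with the 7 was 0.68 to 0.88 for Plvap, 0.30 to 0.59 for Eng and -0.03 to 0.32 for Tek. All these values share the same 12 libraries and their scaling.

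**Figure D3:**
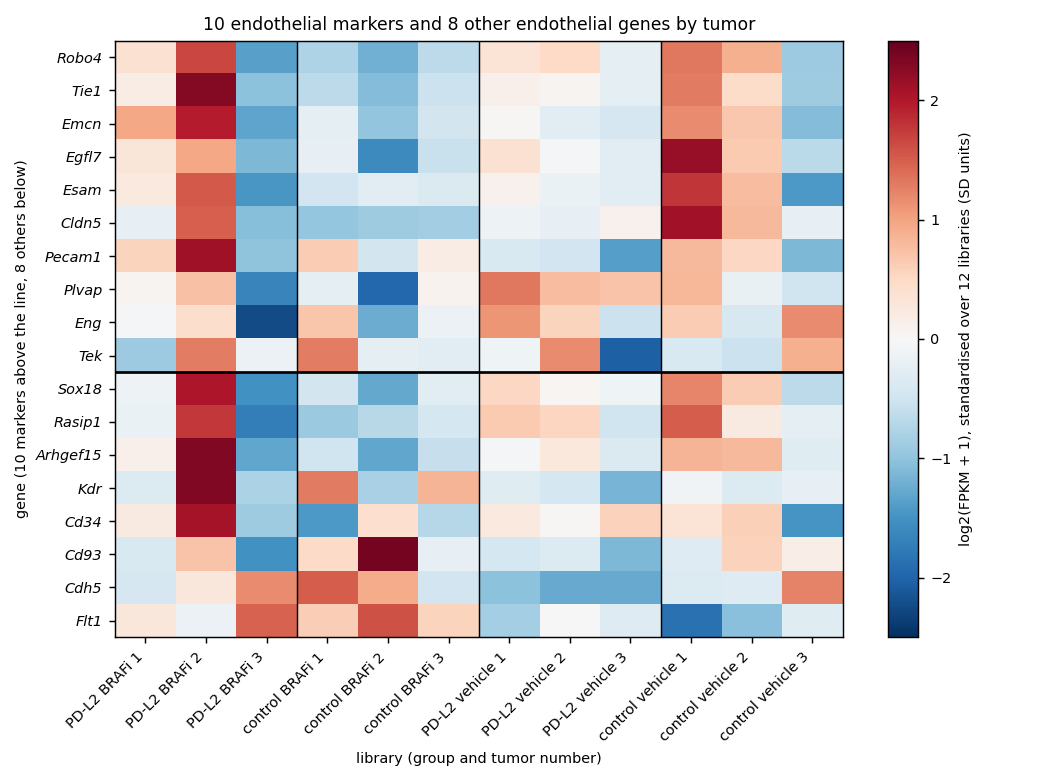
Standardised log2(FPKM + 1) over 12 libraries (colour scale in SD units) for the 10 markers, above the line, and 8 other endothelial genes picked after their values were seen, below it; columns are tumors by group. PD-L2 BRAFi tumor 2 and control vehicle tumor 1 are red and PD-L2 BRAFi tumor 3 blue for most markers, while Cdh5 and Flt1 run otherwise.

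Genes outside the 10 were ranked by their Pearson r with the score over the 12 libraries. The 10 most alike of 12108 tested were Sox18 (0.97), Dync2li1 (0.95), AU021092 (0.95), Arhgef15 (0.94), Pdgfb (0.93), Rasip1 (0.93), Acvrl1 (0.93), Scarf1 (0.93), Wdr45 (0.92) and Ypel1 (0.92). Over all 12108 genes the median r was -0.01, and 179 were over 0.8. Sox18 is a transcription factor of endothelial development, Rasip1 a regulator of vessel lumens, Arhgef15 an exchange factor of endothelial cells, Acvrl1 the type I receptor that works with endoglin, Scarf1 a scavenger receptor of endothelial cells and Pdgfb the ligand by which endothelium recruits pericytes. Leaving out PD-L2 BRAFi tumors 2 and 3 gave r of 0.94 for Sox18 and 0.85 for Rasip1.

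Of 27 other genes that mark endothelial cells broadly, 24 were tested; those named for not following the score were chosen after their values were seen. The r of the 24 with the score had a median of 0.75, 18 were over 0.5 and 4 were negative. Without PD-L2 BRAFi tumors 2 and 3 the median was 0.57, 14 were over 0.5 and 6 were negative. Cdh5, the cadherin of endothelial junctions, had r = -0.36: it was 24.0, 43.1 and 91.3 FPKM in PD-L2 BRAFi and 119.5, 74.5 and 22.7 FPKM in control BRAFi tumors, against 14.2, 11.7 and 11.8 FPKM in PD-L2 vehicle and 25.6, 26.2 and 95.3 FPKM in control vehicle tumors. Per length, Cdh5 thus ran from 0.98 to 9.76 times Pecam1 in the same tumor, and its 4 highest tumors included the 3 with the lowest marker scores. Flt1, a receptor of vascular endothelial growth factor, had r = -0.73, and Kdr, the main signalling receptor of that factor, had 0.56; without those tumors Flt1 was at -0.82, Kdr at 0.14 and Cdh5 at -0.38. Cd93 (0.07), Ptprb (-0.08), S1pr1 (-0.15) and Notch4 (0.19) did not follow the score either.

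**Figure D4:**
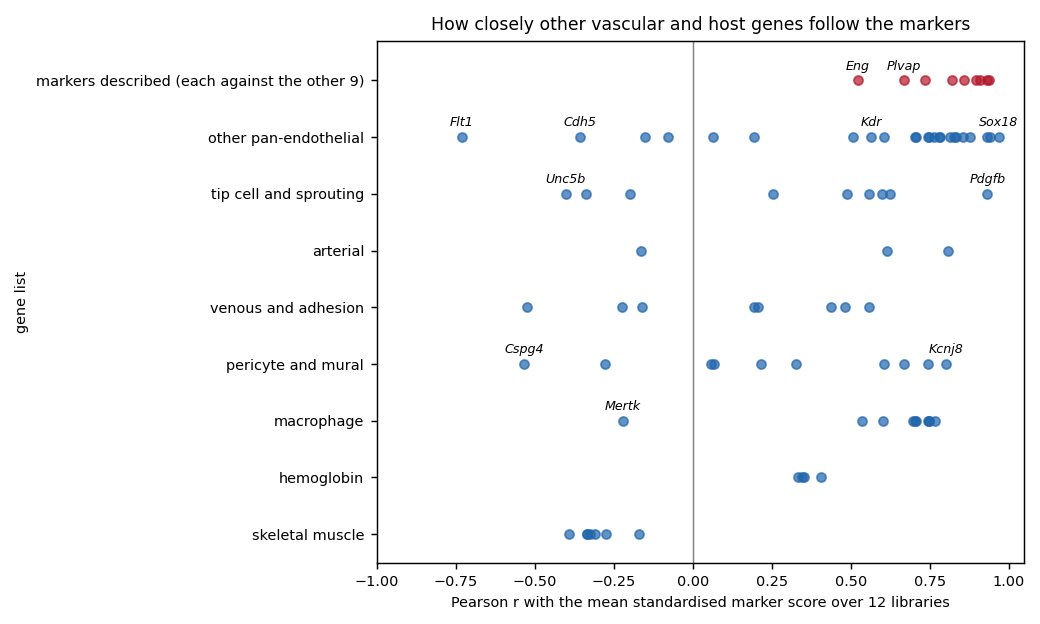
Pearson r over 12 libraries between log2(FPKM + 1) of each tested gene and the mean standardised score of the 10 markers (each marker against the other 9), by gene list; each point is a gene. Most of the 24 other pan-endothelial genes lie above 0.5, with Cdh5 (-0.36) and Flt1 (-0.73) among the 4 below 0, and skeletal muscle genes lie below 0.

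In the same broad endothelial list, 1 of 24 rose under BRAFi in control tumors (3.51% of tested genes did), and in the BRAFi average 1 rose and 1 fell (13.4% and 11.2% of tested genes did). The other 5 comparisons had 0 of 24. Flt1 was 26.3 ± 9.10 FPKM in control BRAFi tumors against 8.51 ± 3.90 FPKM in control vehicle tumors (SD, n = 3 each). It rose by 1.56 ± 0.38 on the log2 scale in control tumors (SE; limma adjusted p = 0.0418) and by 1.14 ± 0.27 in the average (adjusted p = 0.0168). The control tumor call ended on leaving out any 1 of 9 libraries, all but PD-L2 BRAFi tumors 2 and 3 and control vehicle tumor 3 (adjusted p up to 0.17), while the call in the average held without each of the 12. Lyl1, a transcription factor of endothelial and blood cells, fell by 1.21 ± 0.38 in the average (adjusted p = 0.041), a call that ended on leaving out any 1 of 8 libraries. The median over the 24 was -0.20 in control tumors and 0.22 in PD-L2 tumors, beside 0.02 and 0.01 over all tested genes. The median over the 24 without PD-L2 BRAFi tumor 2 was not computed. For the 10 markers in PD-L2 tumors, leaving that tumor out moved the median from 0.09 to -0.23.

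Genes of sprouting and vessel identity were described from lists. Of 9 tip cell and sprouting genes, 1 rose under BRAFi in control tumors (3.51% of tested genes did) and 2 in the average (13.4% did), with 0 lower. The netrin receptor Unc5b was 59.8 ± 11.2 FPKM in PD-L2 BRAFi and 60.4 ± 13.7 FPKM in control BRAFi tumors, against 27.7 ± 2.26 FPKM in PD-L2 vehicle and 31.0 ± 7.47 FPKM in control vehicle tumors (SD, n = 3 each). It rose by 1.00 ± 0.15 in the average (SE; limma adjusted p = 0.00596), which held without each library, and by 0.94 ± 0.21 in control tumors (adjusted p = 0.0354), which ended on leaving out any 1 of 7. The r of Unc5b with the endothelial score was -0.40, and -0.61 without PD-L2 BRAFi tumors 2 and 3. Which cells its RNA came from was not tested. The Notch ligand Dll4 rose by 0.67 ± 0.19 in the average (adjusted p = 0.0299; ended on leaving out any 1 of 4 libraries, PD-L2 BRAFi tumors 2 and 3 and PD-L2 vehicle tumors 1 and 2). Of 3 tested arterial genes 0 passed in any comparison; in the average Hey1 was at 0.75 ± 0.30 (adjusted p = 0.0906) and Efnb2 at 0.12 ± 0.23 (adjusted p = 0.717).

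Of 8 venous and adhesion genes, 1 rose under BRAFi in control tumors (3.51% of tested genes did) and in the average (13.4% did). This was Nr2f2, a transcription factor of venous identity that other stromal cells also express. It was 50.5 ± 4.68 FPKM in PD-L2 BRAFi and 56.3 ± 12.1 FPKM in control BRAFi tumors, against 41.4 ± 2.30 FPKM in PD-L2 vehicle and 28.4 ± 1.46 FPKM in control vehicle tumors (SD, n = 3 each). The rise was 0.61 ± 0.10 in the average (SE; limma adjusted p = 0.00786), which held without each library, and 0.94 ± 0.15 in control tumors (adjusted p = 0.0277), which ended on leaving out any 1 of 4. The lymphatic identity gene Prox1 was at most 0.15 FPKM and Ccl21a was listed at 0 in all tumors. Of 2 tested lymphatic genes 0 passed in any comparison: in the average Lyve1 was at -0.96 ± 0.47 (adjusted p = 0.148) and Pdpn at 0.08 ± 0.27 (adjusted p = 0.848).

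Pericytes and other mural cells wrap capillaries. Of 10 of their genes, 4 rose in the BRAFi average (13.4% of tested genes did) with 0 lower, and 1 of them also rose in control tumors (3.51% did). Rgs5, a marker of pericytes, was 35.1 ± 24.9 FPKM in PD-L2 BRAFi and 48.6 ± 9.43 FPKM in control BRAFi tumors, against 7.34 ± 0.53 FPKM in PD-L2 vehicle and 21.0 ± 8.03 FPKM in control vehicle tumors (SD, n = 3 each). In the average it rose by 1.57 ± 0.30 (SE; limma adjusted p = 0.0089) and Notch3, the Notch receptor of mural cells, by 0.74 ± 0.16 (adjusted p = 0.0133), and both calls held without each library. The growth factor receptor Pdgfrb rose by 0.64 ± 0.18 (adjusted p = 0.0307; ended on leaving out any 1 of 8 libraries) and the proteoglycan Cspg4 by 0.53 ± 0.16 (adjusted p = 0.0402; ended on leaving out any 1 of 9). Cspg4 rose by 1.22 ± 0.23 in control tumors (adjusted p = 0.0301; ended on leaving out any 1 of 5), and melanoma cells also express it. The median of the 10 mural genes in the average was 0.52, beside -0.18 for the 10 endothelial markers and 0.01 over all tested genes. That mural median was not computed without PD-L2 BRAFi tumor 2. The r of the mural genes with the endothelial score was -0.53 to 0.80, with a median of 0.27. For deviations from the group means, r ran from -0.66 for Cspg4 to 0.93 for Rgs5.

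Macrophage genes moved with the endothelial markers in part. The summed FPKM of 10 macrophage genes was 450 to 1628 in PD-L2 BRAFi and 639 to 1340 in control BRAFi tumors, against 905 to 2096 in PD-L2 vehicle and 1937 to 3084 in control vehicle tumors. Of the 10, 9 had r over 0.5 with the endothelial score, as did 2219 of the 12108 tested genes outside the 10 markers, and 8 did without PD-L2 BRAFi tumors 2 and 3. In the BRAFi average 2 fell (11.2% of tested genes did): Cd68 by 0.70 ± 0.20 (SE; limma adjusted p = 0.031; ended on leaving out any 1 of 8 libraries) and Lyz2 by 1.65 ± 0.41 (adjusted p = 0.0192; ended without PD-L2 vehicle tumor 1 or control vehicle tumor 1). Of 2 tested platelet genes, Pf4, which macrophages can also express, fell by 1.61 ± 0.30 in the average (adjusted p = 0.00858), which held without each library, and by 1.93 ± 0.42 in control tumors (adjusted p = 0.0354), which ended on leaving out any 1 of 8. Platelet genes summed to 13.1 to 31.7 FPKM in PD-L2 BRAFi and 13.6 to 22.4 FPKM in control BRAFi tumors, against 39.8 to 81.7 FPKM in PD-L2 vehicle and 46.2 to 80.6 FPKM in control vehicle tumors. The part of these cells in the marker values was not tested.

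Other host and tumor lists had 0 calls in the 7 comparisons. In the BRAFi average the leukocyte genes Coro1a and Laptm5 (4 tested) were at -0.83 ± 0.29 (SE; limma adjusted p = 0.062) and 0.21 ± 0.18 (adjusted p = 0.396). The muscle genes Myh4 and Ckm (7 tested) were at -0.99 ± 0.72 (adjusted p = 0.324) and -1.27 ± 0.97 (adjusted p = 0.348). Muscle genes summed to 1.93 to 160 FPKM in PD-L2 BRAFi, 1.25 to 10.4 FPKM in control BRAFi, 1.77 to 96.9 FPKM in PD-L2 vehicle and 2.25 to 423 FPKM in control vehicle tumors; the highest sums were in control vehicle tumor 3 and PD-L2 BRAFi tumor 3, both low for the endothelial markers, and their part in those values was not tested. The adipocyte gene Fabp4 (1 tested), which capillary endothelium also expresses, was at -1.21 ± 0.46 (adjusted p = 0.0783). Melanocyte lineage genes (2 tested) were at 1.29 ± 0.61 for Sox10 (adjusted p = 0.139) and -0.14 ± 0.13 for Mitf (adjusted p = 0.422).

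Hemoglobin genes, which come with blood, summed to 30.7 to 43.9 FPKM in control BRAFi tumors, against 190 to 285 FPKM in control vehicle tumors. The sums were 162 to 264 FPKM in PD-L2 BRAFi tumors, against 131 to 383 FPKM in PD-L2 vehicle tumors. All 4 tested fell under BRAFi in control tumors, where 3.91% of tested genes did: Hbb-b1 by 2.46 ± 0.34 on the log2 scale (SE; limma adjusted p = 0.0209), Hbb-b2 by 2.20 ± 0.31 (adjusted p = 0.0209), Hba-a1 by 2.25 ± 0.36 (adjusted p = 0.0277) and Hbb-bs by 4.27 ± 0.87 (adjusted p = 0.032). These calls ended on leaving out any 1 of 3 libraries for Hbb-b1 and Hbb-b2 (control BRAFi tumor 2 and control vehicle tumors 1 and 2), 4 for Hba-a1 and 7 for Hbb-bs. In the BRAFi average all 4 fell too (Hbb-b1 by 1.32 ± 0.24, adjusted p = 0.00846), where 11.2% of tested genes did, and those calls held without each library. The median of the 4 was -2.35 in control tumors and -0.07 in PD-L2 tumors, so the average mostly reflects control tumors. In PD-L2 tumors 0 of 4 passed, and the interaction passed for 0 of 4. Under BRAFi, 3 of 4 were higher in PD-L2 than in control tumors (0.0578% of tested genes were), with Hba-a1 at 2.47 ± 0.36, Hbb-b1 at 2.38 ± 0.34 and Hbb-b2 at 2.18 ± 0.31 (adjusted p = 0.0454 for each), and each of these calls ended on leaving out any 1 of 10 libraries. Values of these near-identical genes are uncertain. Their r with the endothelial score was 0.33 to 0.41.

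To set the markers beside each other within a tumor, each was divided by Pecam1 in the same tumor, a step added after the values were seen. Relative to Pecam1, 5 of 9 markers were lower without overlap in control BRAFi than in control vehicle tumors (Cldn5, Egfl7, Tie1, Emcn and Robo4), where 13.3% of tested genes had ratios that did not overlap in either direction. In PD-L2 tumors 6 of 9 were lower under BRAFi without overlap (Plvap, Egfl7, Eng, Tie1, Esam and Robo4), where 24.5% of tested genes had ratios that did not overlap. The ratios share their denominator, so they are not independent. Pecam1 had the most positive BRAFi difference of the tested markers in control (0.02) and PD-L2 tumors (0.52), which by itself lowers the ratios of the others. With Tie1 as the denominator, 2 were lower (Cldn5 and Robo4) and 1 higher (Pecam1) without overlap in control tumors, where 19.5% of tested genes did not overlap. In PD-L2 tumors 2 were likewise lower (Eng and Plvap) and 1 higher (Pecam1), where 8.31% did not overlap. Between lines, 2 of 9 ratios to Pecam1 were higher without overlap in PD-L2 vehicle than in control vehicle tumors (Plvap and Robo4; 10.4% of tested genes in either direction). Under BRAFi, 4 were higher in PD-L2 tumors (Tie1, Emcn, Robo4 and Egfl7) and 1 lower (Eng), where 4.01% of tested genes did not overlap. These counts changed with the denominator. Between lines with Tie1 in its place, 1 was higher (Plvap) and 1 lower (Cldn5) under vehicle. Under BRAFi, 0 were higher and 2 lower (Pecam1 and Eng). The share of tested genes was not computed for these ratios to Tie1 between lines, so whether such counts are unusual cannot be told.

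The ratio of Plvap to Pecam1 was 3.20, 2.77 and 2.27 in PD-L2 BRAFi tumors, against 7.61, 6.08 and 7.75 in PD-L2 vehicle tumors. In control tumors it was 2.72, 1.64 and 3.61 under BRAFi, against 4.25, 2.87 and 4.07 under vehicle. The treated PD-L2 tumors were all below the vehicle PD-L2 tumors, while the control groups overlapped, and PD-L2 vehicle was above control vehicle without overlap. Plvap relative to Pecam1 differed by -1.33 ± 0.35 on the log2 scale in PD-L2 tumors (SE; limma adjusted p = 0.14, where 0.124% of tested genes passed) and by -0.93 ± 0.25 in the BRAFi average (adjusted p = 0.0571, where 2.31% passed). Cldn5 relative to Pecam1 differed by -1.46 ± 0.37 in control tumors (adjusted p = 0.272, where 0.0% passed) and by -0.94 ± 0.26 in the average (adjusted p = 0.0644).

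**Figure D5:**
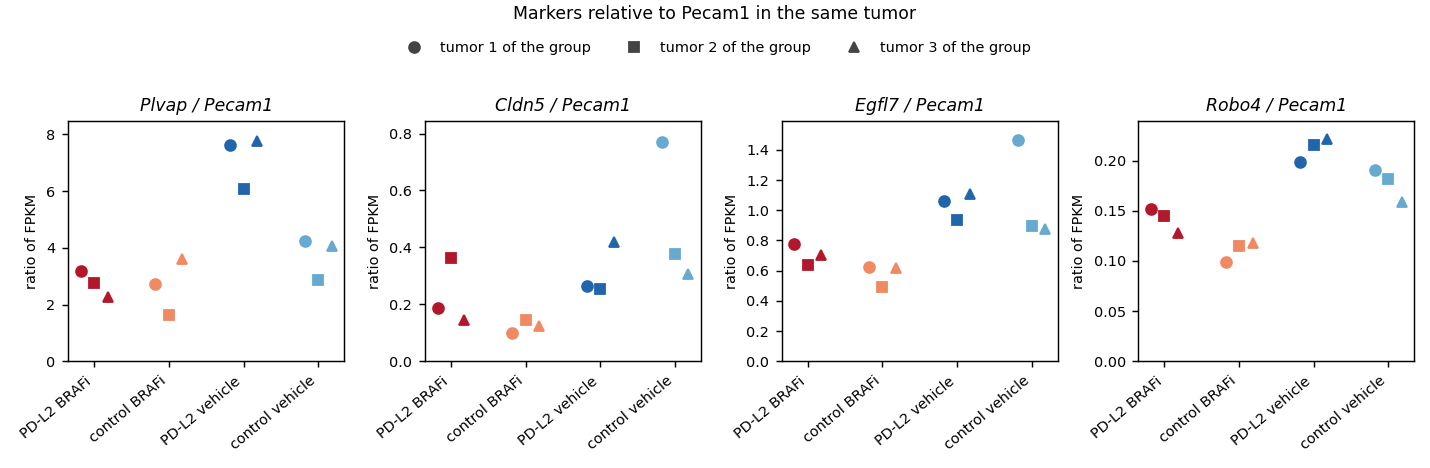
Ratio of FPKM to that of Pecam1 in the same tumor (linear axis from 0) for Plvap, Cldn5, Egfl7 and Robo4 in the 12 tumors; symbols are tumors 1, 2 and 3 of a group. Plvap ratios are 2.27 to 3.20 in PD-L2 BRAFi against 6.08 to 7.75 in PD-L2 vehicle tumors, and Egfl7 and Robo4 ratios are below vehicle in both treated groups.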

How the data were processed

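Expression was measured in 12 tumors (4 groups of 3). The labels number the libraries within each group, and each library was taken as a separate tumor. The p-values measure the spread between these libraries. Whether some of the tumors shared an animal is not given. The authors deposited 1 table of FPKM values for 23940 genes (mm9, TopHat, TopHat2, Cuffnorm and Cuffdiff, per the submitters' processing notes; the sources used here give neither their versions nor the annotation). Libraries were unstranded, per the labels, which give paired-end reads where the design text gives single-end reads. Whole reads could not be recovered from the FPKM steps, so no counting interval is given.

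Values were tested as log2(FPKM + 1), which understates changes of low genes, in the 12117 genes that averaged 1 FPKM or more. limma 3.58.1 (R 4.3.3; empirical Bayes, trend) fitted the 4 group means to all 12 libraries, with two-sided p-values adjusted by Benjamini-Hochberg over the 12117 genes and a threshold of 0.05. The script was tested on simulated data. Genes named are the 10 members; Pdcd1lg2; from each list those past the threshold in any comparison, otherwise the 2 smallest p in the BRAFi average; the 10 most alike; and genes overlapping a member. Members and lists were chosen with earlier results of these data known.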

Additional observations from a re-analysis of the deposited data

How the results depend on the processing

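Over 22 alternatives (other pseudocount, filters, scalings, length correction, fits to the 2 groups compared, replicate block, each library left out), 0 markers passed in any comparison, with 2 exceptions. Leaving out 1 library each gave 0 to 1 markers called for BRAFi in control tumors and 0 to 1 in the BRAFi average; the 1 was Cldn5, without control vehicle tumor 3 and without PD-L2 BRAFi tumor 2. The counts of all genes called were less stable: 899 for BRAFi in control tumors ran from 0 to 1649 with a library left out, was 18 in the fit to the 2 groups compared and 52 with the length trend removed, and 1438 after rescaling to the same sum, where the median of all tested genes was 0.17 in place of 0.02 and 83.3% of called genes were higher, against 47.3%. Quantile normalization gave 1126, of which 37.7% were higher. The cause was not tested.

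Of 1152 values for single markers, 1101 kept direction and side of the threshold, 49 changed sign and 2 passed anew. Among the other settings, Pecam1 for BRAFi in control tumors was -0.052 with quantile normalization and -0.0013 with the length trend removed, also with the replicate block. For BRAFi in PD-L2 tumors Robo4 was -0.022 with pseudocount 0.1 (also without a filter), -0.051 with quantile normalization and -0.077 with the length trend removed (also with the block), and Egfl7 was -0.032 with quantile normalization. Rescaling to the same sum gave 0.077 for Emcn in the BRAFi average and -0.021 for Pecam1 in PD-L2 against control under BRAFi. Robo4 was 0.0016 for PD-L2 under vehicle with quantile normalization.

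With each library left out in turn, Pecam1 for BRAFi in control tumors ran from -0.22 to 0.17. For BRAFi in PD-L2 tumors, Tie1 ran from -0.16 to 0.48, Cldn5 from -0.45 to 0.57, Esam from -0.27 to 0.56, Robo4 from -0.24 to 0.28 and Egfl7 from -0.22 to 0.32. In the BRAFi average, Tie1 ran from -0.28 to 0.041, Emcn from -0.17 to 0.20 and Esam from -0.40 to 0.073. For PD-L2 under vehicle, Tie1 ran from -0.34 to 0.082, Eng from -0.19 to 0.13, Esam from -0.78 to 0.12, Robo4 from -0.31 to 0.073 and Egfl7 from -0.72 to 0.018. For PD-L2 under BRAFi, Pecam1 ran from -0.14 to 0.49, Eng from -0.32 to 0.15, Esam from -0.13 to 0.70 and Plvap from -0.14 to 0.74. In the interaction, Eng ran from -0.29 to 0.19 and Plvap from -0.73 to 0.15.

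Of the 28 calls of list genes, 0 changed sign and 8 passed in every alternative; all 9 in control tumors and all 3 between lines ended when some 1 library was left out, as did 6 of 16 in the BRAFi average. Of 15 alternatives, Plvap relative to Pecam1 passed in 3 in the average: with the replicate block (-0.93, adjusted p = 0.0303), without PD-L2 BRAFi tumor 2 (-0.94, adjusted p = 0.0488) and without PD-L2 BRAFi tumor 3 (-0.86, adjusted p = 0.0291). In PD-L2 tumors it passed in 1, without PD-L2 BRAFi tumor 3 (-1.19, adjusted p = 0.0405). Cldn5 passed in 4 in the average: with pseudocount 0.1 (-1.16, adjusted p = 0.0475), with the block (-0.94, adjusted p = 0.0471) and without PD-L2 BRAFi tumor 2 (-1.06, adjusted p = 0.0353) or 3 (-0.87, adjusted p = 0.0379). Relative to Tie1 in the average Plvap was -0.55 (adjusted p = 0.485) and Cldn5 -0.56 (adjusted p = 0.448). Deviations of same-numbered tumors from different groups correlated at -0.37 to 0.24, over 0.1 in 6 of 18 pairs. In 8 of the 18, the same-numbered tumor was the best match in the other group. Whether the replicate numbers pair the tumors was not tested. With the replicate block, 1334 genes passed for BRAFi in control tumors in place of 899, and 0 markers. Depth is unknown, so the precision of low genes such as Tek cannot be given.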
